A study of Mus musculus with 17 samples.

Results

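Newborn testes of Inha KO mice were compared with those of Inha WT mice across all genes. The members are the 6 libraries whose titles name PND 0 (the day of birth), 3 Inha KO and 3 Inha WT, of 17 whole-testis libraries in all, and the other 11 come from Inha KO and Inha WT testes at E15.5 and E13.5. All 6 are from the C57/Bl6 strain, and no treatment or further allele is given for either genotype. The Inha KO line lacks the coding sequence of the mature Inha subunit in every cell of the body and was bred from heterozygotes, so these libraries cannot separate what the testis lacks from what the rest of the animal lacks. The labels do not say whether a library is 1 animal, and the p-values therefore measure only the spread between libraries. That spread was estimated from all 17 libraries in 1 model, so it draws on the earlier ages as well. The study set out to learn how raised activin A affects the testis between sex determination and birth.

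Inhibin is a dimer of the alpha subunit that Inha encodes and a beta subunit, Inhba or Inhbb, and it competes with activin, the dimer of beta subunits, for activin receptors. Activin signals through type I and type II receptors to SMAD2 and SMAD3, and follistatin and FSTL3 bind and block it. At birth the mouse testis holds cords in which Sertoli cells enclose quiescent gonocytes (the male germ cells before they become spermatogonia), and fetal Leydig cells between the cords make androgen, its last step being carried out in Sertoli cells at this stage.

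Inha itself showed the genotype. The 3 KO libraries held 11, 9 and 3 Inha reads, and the 3 WT libraries held 38565, 34871 and 32235. In CPM, the reads of a gene scaled to the depth of its library with TMM factors, Inha averaged 0.36 ± 0.193 in KO testes and 1632 ± 127 in WT testes (SD, n = 3 each), a log2 fold change of -12.12 (± 0.51 SE, edgeR adjusted p = 1.19e-09). Log2 fold changes throughout are KO minus WT.

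Depth was even, at 21066341 to 21747877 counts per newborn library. Defining markers of the testis were present in all 6 libraries: the Sertoli hormone Amh stood at 2063 to 2310 CPM in KO and 2356 to 2710 CPM in WT testes, the Leydig enzyme Cyp11a1 at 423 to 953 CPM in KO and 891 to 1221 CPM in WT, and the germ cell helicase Ddx4 at 14.2 to 24 CPM in KO and 26.7 to 38.7 CPM in WT. Some libraries stood apart. On the first principal component of log2 CPM, which held 49.1% of the variance of the 6 libraries, KO 1 lay at 1.29, KO 2 at -41.95 and KO 3 at -43.37, against 37.46 for WT 1, 36.09 for WT 2 and 10.49 for WT 3. On this component KO 1 and WT 3 were thus the closest KO and WT libraries, while KO 2 and KO 3 lay far from every WT library. By correlation of log2 CPM, KO 2 stood at 0.9852 with WT 3, 0.979 with WT 2 and 0.9778 with WT 1. KO 3 stood at 0.9839, 0.9769 and 0.9758 with the same libraries. WT 1 itself stood at 0.9846 with WT 3. KO 1 shares the leading number of its label, 4183, with WT 1 and WT 2, whereas KO 2 and KO 3 carry 4295 and WT 3 carries 4296, and what these numbers mark is not given in the sources used here. WT 1 was nearly without the mesothelial marker Msln, with 0.415 CPM against 28.5 to 39.5 CPM in the other 5 libraries, and KO 3 was high in the neutrophil granule gene Camp, with 45.9 CPM against 0.816 to 4.05 CPM in the others.

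To be called, a gene needed a fold change of at least 1.5 and, by the quasi-likelihood test of edgeR with Benjamini-Hochberg adjustment over every tested gene, an adjusted p under 0.05. Of 18635 genes tested 360 were called, 1.93%: 84 were higher in KO testes (0.451%) and 276 were lower (1.48%). These shares over all tested genes are the reference for the counts of called list members given below. With no limit on the fold, 4.6% of genes passed. A log2 fold change below 0 was found for 48.7% of tested genes. The median log2 fold change over all tested genes was 0.01. Among the genes called lower the median was -1.27, and among those called higher it was 0.84. Genes called lower had a median of 5.11 CPM in WT testes, against 17.2 CPM over all tested genes, and 137 of the 276 averaged below 5 CPM there. Genes called higher had a median of 22 CPM in KO testes. All 3 KO libraries lay below all 3 WT libraries for 265 of the 276 genes called lower, and above them for 66 of the 84 called higher. Over all tested genes 12.6% lay below and 11% above in this way, so that separation of the 6 libraries was common in the whole transcriptome.

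**Figure D1:**
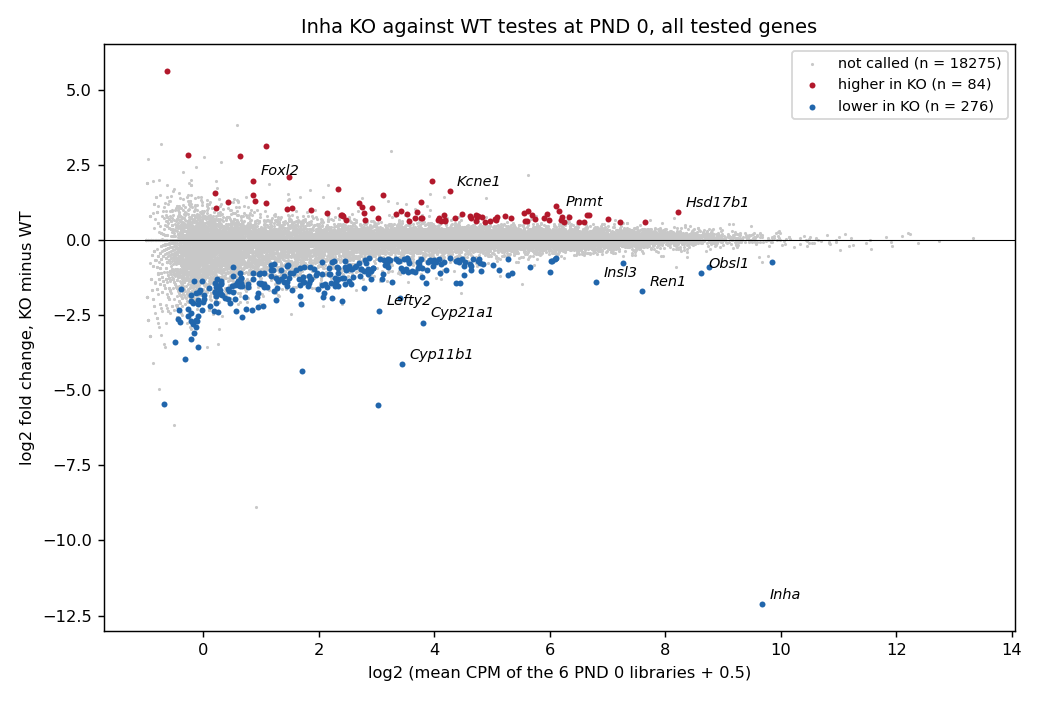
Log2 fold change (KO minus WT, edgeR) against log2 of the mean CPM of the 6 newborn libraries plus 0.5, for 18635 genes. Red points are the 84 genes called higher in KO testes, blue points the 276 called lower and grey points the rest, and Inha lies alone at -12.12.

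These counts depended on single libraries. KO 1 was the KO library nearest to WT for 274 of the 360 called genes, and WT 3 was the WT library nearest to KO for 221. Leaving out KO 1 gave 1093 called genes (5.87% of those tested), and leaving out WT 3 gave 763. Leaving out 1 of the other libraries gave fewer: 36 without KO 2, 83 without KO 3, 152 without WT 1 and 71 without WT 2. With the 6 newborn libraries fitted alone, so that the earlier ages lent nothing to the estimate of spread, the count was 18. Of the 360 genes, 33 were called in all 6 fits that left out a library, 22 of them lower and 11 higher in KO testes. All 33 were also called with DESeq2, with limma voom and with the number 4183 as a term of the model, and 11 were called when the newborn libraries were fitted alone.

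Among those 11 genes were Inha, its neighbour Obsl1, Chdh, Scn8a and Ephx1, which were lower in KO testes, and Ccl17, Crispld1, Hprt, Cst12 and Pnmt, which were higher. Chdh, choline dehydrogenase of mitochondria, had 7.44, 5.97 and 9.30 CPM in KO testes, against 21.1, 19.8 and 19.8 CPM in WT testes (log2 fold change -1.42 ± 0.18 SE, edgeR adjusted p = 0.00224). Ephx1, the microsomal epoxide hydrolase, had 48.2, 34.9 and 40.1 CPM in KO testes, against 87.1, 85.1 and 85.6 CPM in WT testes (log2 fold change -1.06 ± 0.14 SE, edgeR adjusted p = 0.00224). In both genes the WT libraries were nearly level and every KO library lay well below them. Crispld1, a secreted protein with a CAP domain, had 49.2, 49.9 and 49.1 CPM in KO testes, against 31.4, 27.3 and 29.7 CPM in WT testes (log2 fold change 0.74 ± 0.11 SE, edgeR adjusted p = 0.0038). Cst12, a cystatin of the male reproductive tract, had 107, 102 and 95.1 CPM in KO testes, against 58.6, 66.1 and 53.2 CPM in WT testes (log2 fold change 0.77 ± 0.12 SE, edgeR adjusted p = 0.00571). KO and WT libraries did not overlap for either, and KO 1 was not set apart from KO 2 and KO 3. Ccl17, a chemokine for the receptor CCR4, had 65, 64 and 67.1 CPM in KO testes, against 39.6, 38.2 and 42.7 CPM in WT testes (log2 fold change 0.70 ± 0.11 SE, edgeR adjusted p = 0.00579). The spread within each genotype was small beside the gap between them.

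**Figure D2:**
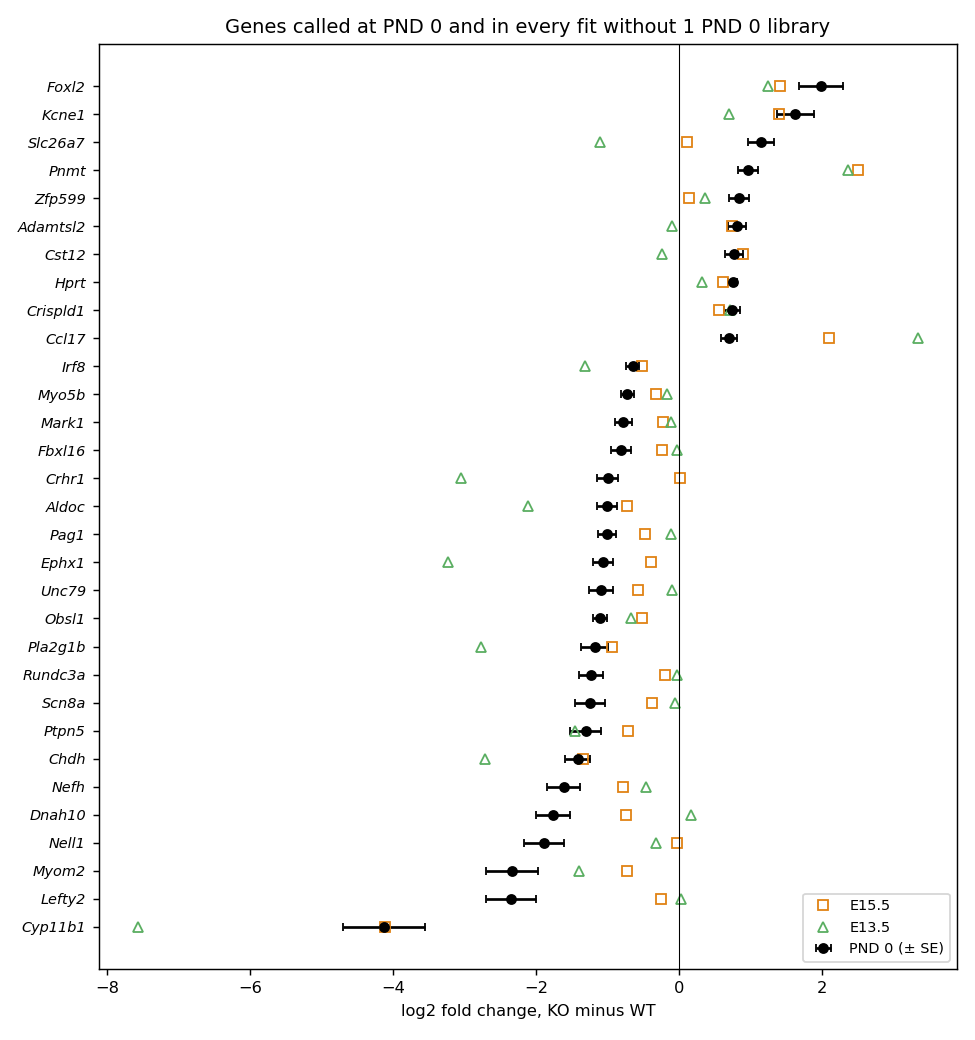
Log2 fold changes (KO minus WT) of the named genes besides Inha that were called at PND 0 and in every fit without 1 newborn library. Black points with bars are PND 0 values ± SE, orange squares E15.5 and green triangles E13.5. Cyp11b1 has the lowest value at PND 0, -4.13, and Foxl2 the highest, 1.99.

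Around the deleted gene, 5 of 89 tested genes within 5 Mb of Inha were called (5.62%, against 1.93% of all tested genes). They were Inha, Obsl1, Ccdc108, Wdfy1 and Gm15181. In the annotation (GENCODE, GRCm38) Inha lies on the plus strand at chr1:75507077-75510366. Obsl1, which encodes the cytoskeletal linker obscurin-like 1, lies on the minus strand at chr1:75479310-75506452. The RefSeq start sites of this head-to-head pair are 1157 bases apart. Obsl1 had 208, 264 and 277 CPM in KO testes, against 506, 515 and 586 CPM in WT testes (log2 fold change -1.10 ± 0.10 SE, edgeR adjusted p = 3.23e-05), with no overlap. Gm15181, a gene model at chr1:75514107-75514283, had 2, 6 and 10 reads in KO libraries and 0 in every WT library, which for WT allows up to 3 reads at 95% confidence. Its reads were few, and its call was lost in 4 of the 6 fits without a library. Wdfy1, an endosomal adaptor protein, averaged 11.7 ± 1.6 CPM in KO testes and 31 ± 2.74 CPM in WT testes (SD, n = 3 each), without overlap (log2 fold change -1.41 ± 0.34 SE, edgeR adjusted p = 0.033). Hprt, the X-linked purine salvage enzyme, had 75.7, 77.2 and 71.1 CPM in KO testes, against 44.6, 42.6 and 45.7 CPM in WT testes (log2 fold change 0.75 ± 0.06 SE, edgeR adjusted p = 1.22e-05). It had the lowest adjusted p of the genes called higher, and its log2 fold change was 0.61 at E15.5 and 0.32 at E13.5. Whether all of the Hprt reads came from the X-linked gene was not tested.

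Among activin ligands and their antagonists, 4 of 15 tested genes were called, against 1.93% of all tested genes. Of the 4 called genes 1 was Inha itself. Lefty2, a secreted antagonist of NODAL, fell most after Inha. It had 4.84, 1.23 and 1.52 CPM in KO testes, against 15, 14.4 and 9.50 CPM in WT testes (log2 fold change -2.35 ± 0.35 SE, edgeR adjusted p = 0.00398). KO 1 was the highest KO library and still lay below every WT library. Fst, which encodes follistatin, had 6.79, 8.95 and 9.16 CPM in KO testes, against 3.32, 5.21 and 4.72 CPM in WT testes (log2 fold change 0.91 ± 0.19 SE, edgeR adjusted p = 0.0213). Fstl3 had 19.7, 25.5 and 16.2 CPM in KO testes, against 11.3, 11 and 14.5 CPM in WT testes (log2 fold change 0.74 ± 0.16 SE, edgeR adjusted p = 0.0228). Both activin-binding proteins were thus higher in every KO library than in any WT library, although each was called in only 3 of the 6 fits without a library.

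The subunits and the signalling chain were not called. Inhba, the beta A subunit shared by activin A and inhibin A, had 91.7, 88.7 and 71.9 CPM in KO testes, against 106, 88.2 and 84.4 CPM in WT testes (log2 fold change -0.15 ± 0.19 SE, edgeR adjusted p = 0.678). Inhbb, the beta B subunit, had 470, 568 and 504 CPM in KO testes, against 422, 488 and 413 CPM in WT testes (log2 fold change 0.22 ± 0.08 SE, edgeR adjusted p = 0.106). The genotypes overlapped for both. Of 10 receptors and SMADs none was called, and their log2 fold changes ran from -1.15 to 0.31. Smad2, the activin-responsive SMAD with the highest log2 fold change of that list, had 92.2, 107 and 99.2 CPM in KO testes, against 80.7, 76.4 and 83.8 CPM in WT testes (log2 fold change 0.31 ± 0.07 SE, edgeR adjusted p = 0.0217), which is under the 1.5-fold limit.

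In the BMP and AMH pathway 1 of 27 genes was higher and 3 were lower, against 0.451% and 1.48% of all tested genes. Nog, the secreted BMP antagonist noggin, was at low level, with 0.372, 0.426 and 0.380 CPM in KO testes, against 0.691, 1.13 and 1.10 CPM in WT testes (log2 fold change -1.30 ± 0.29 SE, edgeR adjusted p = 0.0233). Sostdc1, another secreted BMP antagonist, had 21.8, 15.2 and 11.9 CPM in KO testes, against 31, 36 and 29.7 CPM in WT testes (log2 fold change -0.98 ± 0.22 SE, edgeR adjusted p = 0.024). Chrdl1, a BMP-binding protein of the chordin family, had 11, 9.42 and 8.26 CPM in KO testes, against 5.58, 6.39 and 5.06 CPM in WT testes (log2 fold change 0.75 ± 0.18 SE, edgeR adjusted p = 0.0333). BMP antagonists therefore lay on both sides, and the genotypes did not overlap for these 3. Bmp2 was lower in KO testes as well (log2 fold change -0.94 ± 0.25 SE, edgeR adjusted p = 0.0443), with KO 1 at 6.6 CPM inside the WT range of 6.30 to 9.11 CPM. None of these 4 calls held without KO 2 or without KO 3.

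Several genes of fetal Leydig cells were lower. Of 12 fetal Leydig markers 4 were lower, against 1.48% of all tested genes, and none was called higher. Of the 12 markers 10 had a log2 fold change below 0 and 2 above it, up to 0.80. Their median log2 fold change was -0.63, against 0.01 over all genes. In bulk tissue, fewer cells of a type and less RNA per cell cannot be told apart. Insl3, the hormone that draws the testis down during descent, had 90.6, 51.2 and 41.3 CPM in KO testes, against 167, 153 and 164 CPM in WT testes (log2 fold change -1.40 ± 0.24 SE, edgeR adjusted p = 0.00832). Ren1, renin, had 134, 71.7 and 68.2 CPM in KO testes, against 308, 288 and 293 CPM in WT testes (log2 fold change -1.70 ± 0.27 SE, edgeR adjusted p = 0.00615). Lhcgr, the luteinising hormone receptor, had 14.8, 10.4 and 7.78 CPM in KO testes, against 40.3, 24.7 and 23.6 CPM in WT testes (log2 fold change -1.43 ± 0.24 SE, edgeR adjusted p = 0.00729). For all 3 genes KO 1 was the highest KO library, and no KO library reached the lowest WT library. Crhr1, a receptor for corticotropin-releasing hormone, averaged 9.49 ± 1.43 CPM in KO testes and 19 ± 3.1 CPM in WT testes (SD, n = 3 each), without overlap (log2 fold change -1.0 ± 0.15 SE, edgeR adjusted p = 0.00508). Insl3, Ren1, Lhcgr and Crhr1 were each called lower in every fit without 1 library except that without KO 2, where Crhr1 alone of them was called. Without KO 1 the list had 6 genes lower and 1 higher, and without WT 3 it had 5 lower. Within the label number 4183 the median difference of the 12 markers was -0.44, and among the libraries of the other numbers it was -0.74.

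Of the enzymes and other genes of Leydig androgen synthesis, none of 12 was called (2 were lower without KO 1 and 1 without WT 3), their median log2 fold change was -0.16, and 8 were below 0. Cyp11a1, which cleaves the side chain of cholesterol, had 953, 472 and 423 CPM in KO testes, against 1221, 891 and 924 CPM in WT testes (log2 fold change -0.72 ± 0.26 SE, edgeR adjusted p = 0.11). KO 1 lay inside the WT range, whereas KO 2 and KO 3 were at about the same lower level. Cyp17a1, which makes the androgen precursor androstenedione, had 212, 169 and 226 CPM in KO testes, against 558, 346 and 234 CPM in WT testes (log2 fold change -0.91 ± 0.26 SE, edgeR adjusted p = 0.0566). Hsd3b1 had a log2 fold change of -0.55 (± 0.16 SE, edgeR adjusted p = 0.0555) and Star, which carries cholesterol into mitochondria, -0.54 (± 0.19 SE, edgeR adjusted p = 0.0985). Cyb5a, the cytochrome that aids CYP17A1, was the 1 member with an adjusted p below 0.05, and it ran the other way. It had 82.6, 107 and 94.4 CPM in KO testes, against 68, 65.2 and 71.3 CPM in WT testes (log2 fold change 0.47 ± 0.08 SE, edgeR adjusted p = 0.00795), under the 1.5-fold limit. Nr5a1, the nuclear receptor that drives steroid genes in Leydig and Sertoli cells, had 488, 508 and 500 CPM in KO testes, against 442, 394 and 574 CPM in WT testes (log2 fold change 0.09 ± 0.09 SE, edgeR adjusted p = 0.617). In cholesterol synthesis 2 of 25 genes were lower (8%, against 1.48% of all tested genes). These were Fdps and Tm7sf2, with log2 fold changes of -0.74 and -1.05. Neither call held without KO 2, KO 3, WT 1 or WT 2.

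**Figure D3:**
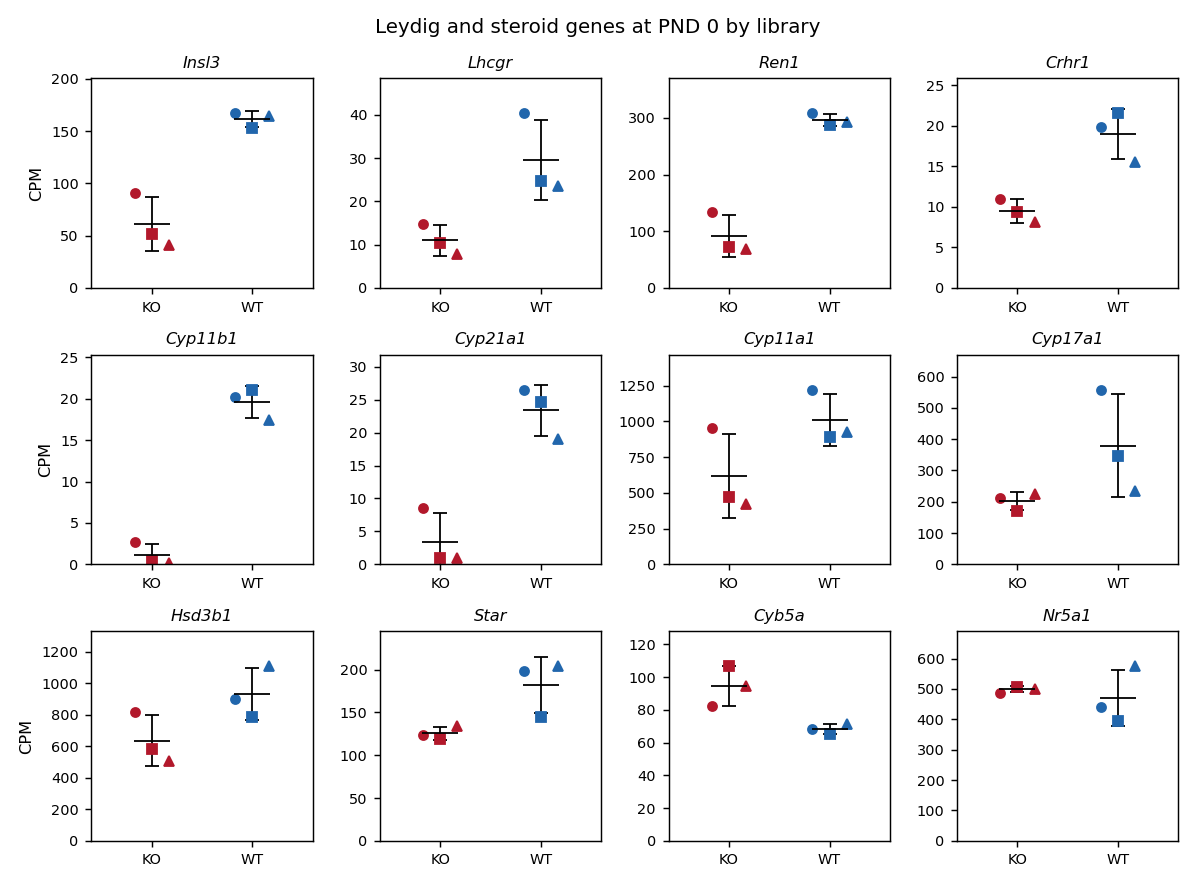
CPM in the 3 KO (red, left) and 3 WT (blue, right) newborn libraries for 12 Leydig and steroid genes, each axis starting at 0. Circles, squares and triangles are replicates 1, 2 and 3, and bars are the mean ± SD. KO and WT points are apart for Insl3, Lhcgr, Ren1, Crhr1, Cyp11b1, Cyp21a1, Cyp17a1 and Cyb5a, and overlap for Cyp11a1, Hsd3b1 and Nr5a1.

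Larger falls were seen in steroid enzymes better known from the adrenal cortex. Cyp11b1, the 11 beta-hydroxylase that makes corticosterone and 11-oxygenated androgens, had 2.70, 0.426 and 0.190 CPM in KO testes, against 20.2, 21.1 and 17.4 CPM in WT testes (log2 fold change -4.13 ± 0.58 SE, edgeR adjusted p = 0.0033). Cyp21a1, the 21-hydroxylase, had 8.51, 0.947 and 0.902 CPM in KO testes, against 26.5, 24.6 and 19 CPM in WT testes (log2 fold change -2.75 ± 0.63 SE, edgeR adjusted p = 0.0262). In both, KO 1 was several times above KO 2 and KO 3 and still below every WT library. The Cyp11b1 call held in all 6 fits without a library and the Cyp21a1 call in 2. The other called member of this list of 11, Pnmt, the enzyme that turns noradrenaline into adrenaline, was higher, with 103, 90.4 and 87 CPM in KO testes, against 54.9, 40.1 and 48.3 CPM in WT testes (log2 fold change 0.97 ± 0.14 SE, edgeR adjusted p = 0.00366). The 3 called members thus did not share a direction. Of the 11 genes 9.09% were called higher and 18.2% lower, against 0.451% and 1.48% of all tested genes.

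A few Sertoli genes were higher. Of 26 Sertoli markers 2 were higher, against 0.451% of all tested genes, and none was lower. The summed level of the 26 markers was 7970 to 8260 CPM in KO testes and 7980 to 8660 CPM in WT testes. Fshr, the follicle-stimulating hormone receptor, had 53.4, 67.7 and 75.7 CPM in KO testes, against 34.2, 33.2 and 41.8 CPM in WT testes (log2 fold change 0.85 ± 0.22 SE, edgeR adjusted p = 0.042). Rhox8, a homeobox gene of Sertoli cells, had 96.3, 149 and 151 CPM in KO testes, against 75.5, 71.9 and 71.3 CPM in WT testes (log2 fold change 0.86 ± 0.19 SE, edgeR adjusted p = 0.0232). KO 1 was the lowest KO library for both and lay above every WT library. Hsd17b1, which converts androstenedione to testosterone and estrone to estradiol, had 308, 455 and 417 CPM in KO testes, against 207, 163 and 245 CPM in WT testes (log2 fold change 0.94 ± 0.23 SE, edgeR adjusted p = 0.0372). Hsd17b3, the other Sertoli enzyme for that androgen step, had 228, 250 and 243 CPM in KO testes, against 196, 172 and 190 CPM in WT testes (log2 fold change 0.37 ± 0.07 SE, edgeR adjusted p = 0.0156), a difference smaller than 1.5-fold. Shbg, the androgen-binding protein, was higher as well (log2 fold change 0.67 ± 0.17 SE, edgeR adjusted p = 0.0384). The calls of Fshr, Rhox8, Hsd17b1 and Shbg held, of the 6 fits without a library, in those without KO 1 and without WT 3, and none of them held with the number 4183 as a term. Amh, the hormone that removes the female ducts, had a log2 fold change of -0.20 (± 0.08 SE, edgeR adjusted p = 0.129).

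Genes of the ovarian somatic programme moved in both directions, with 3 of 13 higher and 2 lower, against 0.451% and 1.48% of all tested genes. Foxl2, the forkhead factor of granulosa cells, was at a low level in every library, with 47, 39 and 48 reads in KO testes, against 6, 16 and 12 reads in WT testes. In CPM this was 2.19, 1.85 and 2.28 in KO testes and 0.276, 0.725 and 0.573 in WT testes (log2 fold change 1.99 ± 0.31 SE, edgeR adjusted p = 0.00571). The lowest KO library was above the highest WT library, and the call held in every fit without a library. Irx3, an Iroquois homeobox gene active in fetal ovaries, had 11.5, 5.97 and 7.74 CPM in KO testes, against 3.78, 2.99 and 3.91 CPM in WT testes (log2 fold change 1.24 ± 0.24 SE, edgeR adjusted p = 0.0128), a call that held in 5 of the 6. Lgr5, the R-spondin receptor of the early ovarian surface, was lower, with 3.63, 2.94 and 5.32 CPM in KO testes, against 7.97, 7.93 and 6.16 CPM in WT testes (log2 fold change -0.89 ± 0.21 SE, edgeR adjusted p = 0.0297). Fst and Bmp2, already described, were the other 2.

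**Figure D4:**
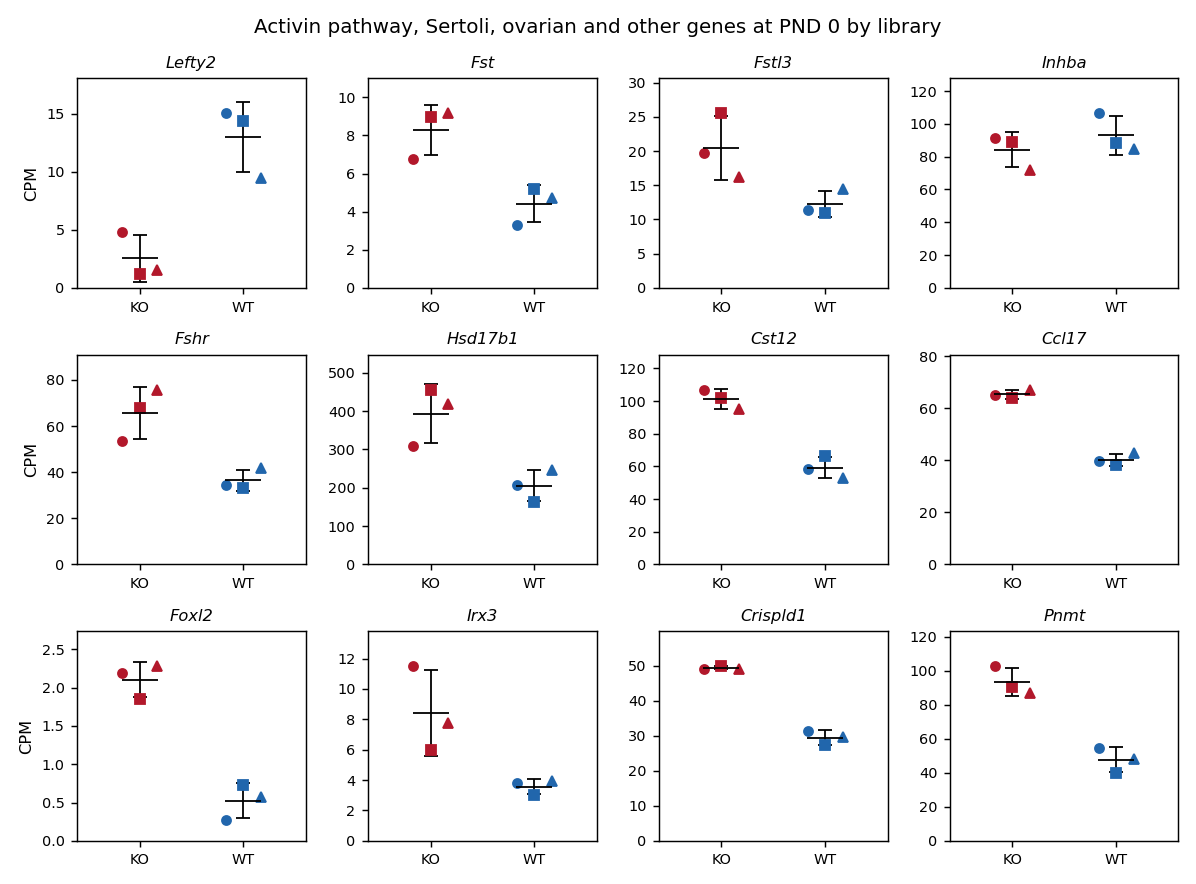
CPM in the 3 KO (red, left) and 3 WT (blue, right) newborn libraries for 12 genes of the activin pathway, Sertoli cells, the ovarian programme and others, each axis starting at 0. Circles, squares and triangles are replicates 1, 2 and 3, and bars are the mean ± SD. Every gene shown except Inhba has KO and WT points apart.

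Germ cell transcripts tended to be lower, and few passed the test. Of 20 gonocyte markers 17 had a log2 fold change below 0 and the median was -0.84. Yet 1 was called lower (5%, against 1.48% of all tested genes) and none higher. All 3 KO libraries lay below all 3 WT libraries for 12 of them, against 12.6% of all tested genes. The summed level of the 20 markers was 227, 164 and 141 CPM in KO testes, against 291, 333 and 228 CPM in WT testes, so KO 1 and WT 3 were level. Ddx4, the germ cell RNA helicase, had 24, 17.9 and 14.2 CPM in KO testes, against 35.5, 38.7 and 26.7 CPM in WT testes (log2 fold change -0.85 ± 0.30 SE, edgeR adjusted p = 0.0993). Dazl, an RNA-binding protein that licenses germ cells, had 52.5, 35.5 and 26.1 CPM in KO testes, against 69.4, 85.1 and 47.5 CPM in WT testes (log2 fold change -0.83 ± 0.31 SE, edgeR adjusted p = 0.119). Sox3, a transcription factor of spermatogonia, was the called marker, with 1.35, 1.09 and 0.854 CPM in KO testes, against 2.95, 3.72 and 1.77 CPM in WT testes (log2 fold change -1.35 ± 0.34 SE, edgeR adjusted p = 0.0379). Without KO 1 there were 5 gonocyte markers called lower, and without KO 2, KO 3, WT 1 or WT 2 there was none.

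The piRNA pathway, which silences transposons in gonocytes by small RNAs and new DNA methylation, had the same shape. Of 22 genes 20 were below 0 with a median of -0.91. All 3 KO libraries were below all 3 WT libraries for 15 of the 22, against 12.6% of all tested genes. Only 1 gene was called lower (4.55%, against 1.48% of all tested genes), Tdrd6 (log2 fold change -1.48 ± 0.38 SE, edgeR adjusted p = 0.0393). Mael, a piRNA factor of the germ granule, had 33, 20 and 19 CPM in KO testes, against 68.6, 77.9 and 52.8 CPM in WT testes (log2 fold change -1.47 ± 0.42 SE, edgeR adjusted p = 0.0563). Spocd1, which directs DNA methylation to young transposons, had 12, 2.79 and 3.18 CPM in KO testes, against 22.9, 29 and 17 CPM in WT testes (log2 fold change -1.94 ± 0.59 SE, edgeR adjusted p = 0.0657). Tdrd9, a helicase of the nuclear branch, had 18.4, 5.87 and 5.13 CPM in KO testes, against 37.2, 38.1 and 24.5 CPM in WT testes (log2 fold change -1.76 ± 0.59 SE, edgeR adjusted p = 0.0908). For the last 3 genes no KO library reached a WT library, and KO 1 was the highest KO library. Without KO 1 the list had 8 genes called lower, without WT 3 it had 4, and without any of the other 4 libraries it had 0. Of 21 genes of spermatogonial stem cells 2 were lower (9.52%, against 1.48% of all tested genes), Sohlh2 and Utf1, at log2 fold changes of -0.94 and -1.29. Of the 21 genes 15 were below 0 and 6 above, up to 1.43. None was called higher, and 1 was without KO 1. Of 22 meiosis genes 1 was lower (4.55%), Rec8, at -0.96. The calls of Sohlh2, Utf1 and Rec8 were all lost without KO 2, KO 3 or WT 2.

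Promoters of the piRNA list are shown because most of its members were below 0, though 1 was called, and because a letter pattern recurs in them. Windows of 300 bases, 250 before and 50 from the start site, were taken from RefSeq (GRCm38.p6) and existed for 12531 of the tested genes. The E-box CACGTG, which reads the same on both strands, occurred in 10 of 18 piRNA genes with a window (55.6%), against 11.1% of all tested genes with one. It was in 5.32% of the genes called lower and 7.84% of those called higher. The pattern was chosen after the values were seen, and a match is a description of the letters. The windows of Mael (minus strand, chr1:166238695-166238994) and Tdrd9 (plus strand, chr12:111971309-111971608) are written from 5′ to 3′ with CACGTG in capitals.
Mael: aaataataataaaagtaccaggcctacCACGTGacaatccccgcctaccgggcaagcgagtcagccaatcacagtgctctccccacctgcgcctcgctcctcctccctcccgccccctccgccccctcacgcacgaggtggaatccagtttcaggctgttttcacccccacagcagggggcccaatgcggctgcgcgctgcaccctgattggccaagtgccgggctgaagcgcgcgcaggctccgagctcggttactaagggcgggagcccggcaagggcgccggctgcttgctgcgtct
Tdrd9: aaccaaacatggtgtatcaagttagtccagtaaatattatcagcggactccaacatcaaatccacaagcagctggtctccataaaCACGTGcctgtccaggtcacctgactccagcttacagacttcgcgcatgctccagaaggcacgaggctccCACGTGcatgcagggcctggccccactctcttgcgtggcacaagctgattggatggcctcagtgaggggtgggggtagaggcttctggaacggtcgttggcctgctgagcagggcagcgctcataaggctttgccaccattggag

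Interferon-stimulated genes, which cells switch on when interferon receptors are engaged, had a median below 0 with few calls. Of 57 genes 53 had a log2 fold change below 0 and the median was -0.67. Of these 57 genes 3 were called lower (5.26%, against 1.48% of all tested genes) and none higher. Their summed level was 918, 605 and 600 CPM in KO testes, against 1030, 1120 and 857 CPM in WT testes, so KO 1 lay inside the WT range and KO 2 and KO 3 lay below it. Lgals3bp, a secreted binder of galectins, had 33.6, 16.6 and 18.4 CPM in KO testes, against 41.7, 55 and 39.6 CPM in WT testes (log2 fold change -0.99 ± 0.20 SE, edgeR adjusted p = 0.0154). Irf7, the factor that amplifies the interferon response, had 8.28, 3.31 and 3.75 CPM in KO testes, against 11, 14.1 and 8.26 CPM in WT testes (log2 fold change -1.12 ± 0.30 SE, edgeR adjusted p = 0.0469). KO 1 overlapped the WT range for Irf7 but not for Lgals3bp. Oasl2, an oligoadenylate synthetase-like protein, was the other called gene (log2 fold change -0.87 ± 0.22 SE, edgeR adjusted p = 0.0395). Without KO 1 there were 34 genes of this list called lower, without WT 3 there were 10, and without KO 2, KO 3 or WT 2 there was none. Within the number 4183 the median difference of the list was -0.23, against -0.58 among the libraries of the other numbers. The receptors and ligands of interferon, 14 genes, had no call and a median of 0.05.

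Genes of the interferon gamma response and antigen presentation had a median of -0.45 over 31, with 1 lower (3.23%, against 1.48% of all tested genes). That gene was Irf8, a factor of myeloid cells, with 6.6, 7.20 and 6.98 CPM in KO testes, against 10.5, 10.5 and 11.6 CPM in WT testes (log2 fold change -0.65 ± 0.10 SE, edgeR adjusted p = 0.0038). Unlike the genes before it, Irf8 was as low in KO 1 as in KO 2 and KO 3, and it was called in every fit without a library. Of 16 macrophage markers none was called, their median was 0.23 and their summed level was 191 to 247 CPM in KO testes and 183 to 199 CPM in WT testes. Macrophage content as a source of the interferon and Irf8 values was not tested.

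Windows of interferon-stimulated genes are shown to give the letters through which such genes are known to respond. The interferon-stimulated response element, searched as the letters GAAA repeated after a gap of any 2 bases, on both strands, was in 21 of 42 list members with a window (50%), against 3.60% of all tested genes with one, 4.79% of genes called lower and 3.92% of genes called higher. Isg15, a ubiquitin-like protein, had 2.33, 0.568 and 0.332 CPM in KO testes, against 2.49, 3.72 and 2.48 CPM in WT testes (log2 fold change -1.42 ± 0.57 SE, edgeR adjusted p = 0.14). Ifit3, which hinders viral translation, had 2.33, 0.379 and 0.237 CPM in KO testes, against 2.03, 4.98 and 1.19 CPM in WT testes (log2 fold change -1.47 ± 0.63 SE, edgeR adjusted p = 0.162). In both, KO 1 was at WT level or close to it. The windows of Isg15 (minus strand, chr4:156200769-156201068) and Ifit3 (plus strand, chr19:34583279-34583578) follow with the motif in capitals, 3 overlapping copies in Isg15 and 2 in Ifit3 on the opposite strand.
Isg15: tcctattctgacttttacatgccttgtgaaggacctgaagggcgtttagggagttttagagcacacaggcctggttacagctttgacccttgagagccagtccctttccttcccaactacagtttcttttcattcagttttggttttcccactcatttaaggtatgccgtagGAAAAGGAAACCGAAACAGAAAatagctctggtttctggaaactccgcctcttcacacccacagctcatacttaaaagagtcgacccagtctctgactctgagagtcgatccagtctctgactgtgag
Ifit3: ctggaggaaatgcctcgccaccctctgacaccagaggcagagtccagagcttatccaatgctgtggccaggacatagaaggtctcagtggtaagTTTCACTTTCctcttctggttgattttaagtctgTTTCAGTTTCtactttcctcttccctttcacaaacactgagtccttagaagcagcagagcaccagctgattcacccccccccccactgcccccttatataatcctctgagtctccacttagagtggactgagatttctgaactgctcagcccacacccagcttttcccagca

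**Figure D5:**
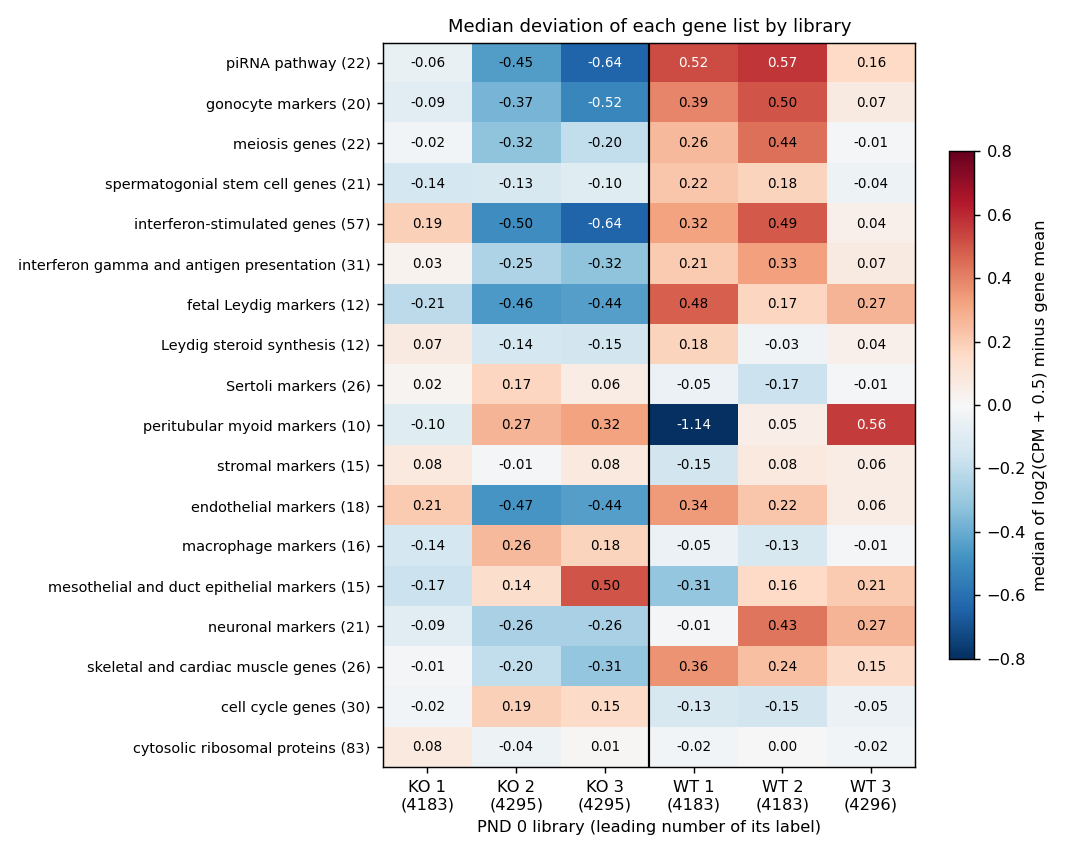
Median deviation of each gene list in each newborn library, on the scale of log2(CPM + 0.5) minus the mean of the gene over the 6 libraries, with the number of tested genes in brackets. KO libraries are left of the line and WT libraries right of it, red is higher and blue lower. For the piRNA pathway KO 2 and KO 3 are at -0.45 and -0.64 while KO 1 is at -0.06, and the peritubular myoid markers of WT 1 are at -1.14.

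Neuronal and excitability genes made up a further part of the falls, at low levels. Of 21 neuronal markers 5 were lower, against 1.48% of all tested genes, and the median was -0.70. Nefh, the heavy neurofilament, had 2.09, 1.66 and 1.33 CPM in KO testes, against 4.75, 6.25 and 4.58 CPM in WT testes (log2 fold change -1.61 ± 0.23 SE, edgeR adjusted p = 0.0033). Ina, the neurofilament protein alpha-internexin, had 3.40, 2.56 and 1.99 CPM in KO testes, against 6.45, 7.79 and 7.49 CPM in WT testes (log2 fold change -1.45 ± 0.25 SE, edgeR adjusted p = 0.00775). Both were apart in all libraries. Of the list 14 genes were below 0 and 7 above. Its summed level, which the most abundant members carry, was 139, 189 and 188 CPM in KO testes, against 142, 151 and 184 CPM in WT testes, with overlap. The count of 5 was 1 without KO 2 and 2 without WT 2. Tubb3 had a log2 fold change of 0.70 (± 0.29 SE, edgeR adjusted p = 0.155). Among 15 sodium channel subunits 2 were lower (13.3%, against 1.48% of all tested genes). Scn8a, a voltage-gated sodium channel, had 2.88, 2.94 and 2.90 CPM in KO testes, against 6.68, 7.79 and 6.20 CPM in WT testes (log2 fold change -1.25 ± 0.21 SE, edgeR adjusted p = 0.00684). It was level in the 3 KO libraries, and its call held in each of the 6 fits without a library. Of 28 GABA and glutamate receptor subunits 5 were lower, against 1.48% of all tested genes, and none higher, with a median of -0.22. That count was 0 without KO 2 and 1 without KO 3 or WT 2. Gabra5, a GABA receptor subunit, had the lowest log2 fold change of the called ones, -2.69. Unc79, a subunit of the sodium leak channel complex, had 2.33, 2.04 and 2.18 CPM in KO testes, against 5.16, 4.85 and 3.91 CPM in WT testes (log2 fold change -1.09 ± 0.17 SE, edgeR adjusted p = 0.00571).

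Potassium channel subunits went both ways, with 2 of 74 higher and 5 lower, against 0.451% and 1.48% of all tested genes. The 5 became 0 without KO 2, KO 3 or WT 2, and 3 without WT 1. Kcne1, an accessory subunit of the slow cardiac potassium channel, had 18.1, 35 and 31.9 CPM in KO testes, against 9.68, 6.48 and 11.3 CPM in WT testes (log2 fold change 1.63 ± 0.26 SE, edgeR adjusted p = 0.00596). KO 1 was the lowest KO library and lay above all WT libraries. Slc26a7, an anion transporter, had 68.5, 114 and 101 CPM in KO testes, against 40.4, 33.6 and 53.9 CPM in WT testes (log2 fold change 1.15 ± 0.18 SE, edgeR adjusted p = 0.00579). Its groups did not overlap either.

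Other called genes with large changes stood outside these lists. Of the rises Omp, a marker of olfactory neurons, had the largest by the rule for naming genes, with 23, 37.3 and 11.6 CPM in KO testes, against 5.44, 8.56 and 4.44 CPM in WT testes (log2 fold change 1.96 ± 0.38 SE, edgeR adjusted p = 0.014). Lamp5, Cxcl14 and Klhdc7a followed with log2 fold changes of 1.70, 1.51 and 1.26. Nell1, a secreted factor of bone formation, had 2.14, 1.37 and 1.19 CPM in KO testes, against 7.93, 5.39 and 4.15 CPM in WT testes (log2 fold change -1.89 ± 0.28 SE, edgeR adjusted p = 0.00453). Myom2, a protein of the sarcomere M band, had 0.605, 0.331 and 0.332 CPM in KO testes, against 2.72, 2.27 and 1.48 CPM in WT testes (log2 fold change -2.33 ± 0.36 SE, edgeR adjusted p = 0.00571), and with Myh6 it was 1 of 2 called among 26 muscle genes. These 2 were 7.69% of the muscle genes, against 1.48% of all tested genes called lower. The Myh6 call was lost without KO 2, KO 3, WT 1 or WT 2. Aldoc, the brain-type aldolase, had 8.14, 6.30 and 6.36 CPM in KO testes, against 14.6, 14.7 and 12.6 CPM in WT testes (log2 fold change -1.01 ± 0.14 SE, edgeR adjusted p = 0.0033). Nell1, Myom2 and Aldoc were called in every fit without a library. The fall by rule that ranked next after Inha, Rps13-ps2, rested on its WT libraries unequally: it had 0.279, 0.331 and 0.380 CPM in KO testes, against 0.461, 21.4 and 23.1 CPM in WT testes (log2 fold change -5.48 ± 1.47 SE, edgeR adjusted p = 0.0459), so WT 1 was at KO level. At E15.5 Rps13-ps2 had 0.363, 18.8 and 0.178 CPM in KO testes, against 33.5, 37.6 and 19.4 CPM in WT testes. No E13.5 library of either genotype exceeded 0.285 CPM, so the level of this transcript also varied within a genotype.

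Of the remaining cell types, endothelial markers had a median of -0.42 and 1 of 18 called lower (5.56%, against 1.48% of all tested genes). It was Plvap, the protein of vessel fenestrae (log2 fold change -0.92 ± 0.18 SE, edgeR adjusted p = 0.0134). The summed level of the 18 markers was 1380, 1060 and 1100 CPM in KO testes, against 1470, 1290 and 1290 CPM in WT testes, and KO 1 lay inside the WT range. Without KO 1 the count of genes called lower was 12, without WT 3 it was 2, without WT 1 it was 1, and without KO 2, KO 3 or WT 2 it was 0. Peritubular myoid markers had none of 10 called, stromal markers none of 15, mesothelial and duct epithelial markers none of 15 and erythroid genes none of 19. Of 30 cell cycle genes 26 were above 0, the median was 0.22 and 2 were higher (6.67%, against 0.451% of all tested genes). Those were Ccne2, a cyclin of the G1 to S step (log2 fold change 0.65 ± 0.12 SE, edgeR adjusted p = 0.0123), and Pola1, the catalytic subunit of DNA polymerase alpha (log2 fold change 0.78 ± 0.16 SE, edgeR adjusted p = 0.019). The count was 7 without KO 1 and 5 without WT 3, against 1 without KO 3 or WT 1, and 0 without KO 2 or WT 2 or with the number 4183 as a term. In the Notch pathway 3 of 19 were lower, against 1.48% of all tested genes. They were Dll1, Jag2 and Hey1, at log2 fold changes of -1.57, -0.69 and -0.71, and none of them held without KO 2, KO 3, WT 1 or WT 2. Of 42 collagens the basement membrane chains Col4a3 and Col4a4 were higher, at log2 fold changes of 0.82 and 0.61, and Col9a3 was lower. These shares were 4.76% higher and 2.38% lower, against 0.451% and 1.48% of all tested genes. The collagen calls were lost without KO 2, KO 3, WT 1 or WT 2. Of 17 circadian genes 2 were lower (11.8%, against 1.48% of all tested genes), and none was called without KO 2 or WT 2. Among the 2 was the nuclear receptor Nr1d1, at a log2 fold change of -0.86. None of 83 ribosomal protein genes was called, and their median was 0.03.

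The newborn contrast was then set against the earlier ages, which share no library with it. The genotype field of the E15.5 libraries titled WT reads Inha KO, and the titles were followed. Those libraries held 14672, 11927 and 13763 Inha reads, against 11, 68 and 6 in the E15.5 libraries titled KO. For the 276 genes lower at PND 0 the median log2 fold change was -1.27 in newborns, against -0.37 in E15.5 testes and -0.28 in E13.5 testes. For the 84 genes higher at PND 0 it was 0.84 in newborns, against 0.27 in E15.5 testes and 0.12 in E13.5 testes. These genes were chosen on the PND 0 values, which makes the first number of each set the larger by construction. The genotype effect at PND 0 differed from that at E15.5 for 4 of 18635 genes (0.0215%) at an adjusted p below 0.05 and from that at E13.5 for 528 (2.83%). Without KO 1 the count against E15.5 was 395. Of the 276 genes called lower, 222 had the same sign at E15.5 and 187 at E13.5. For the 84 called higher these counts were 65 and 50. Of the 33 genes called in every fit without a library, Inha and Obsl1 among them, 32 had the same sign at E15.5 and 27 at E13.5. Among the 33 the effect differed from E15.5 for 2 and from E13.5 for 21.

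Leydig genes were among those whose effect differed from E13.5. Insl3 had a log2 fold change of -1.40 at PND 0, against 0.25 at E15.5 and -3.96 at E13.5, and the difference from E13.5 was 2.55 (± 0.40 SE, edgeR adjusted p = 0.00241). Cyp11a1 had -0.72 at PND 0, against 0.23 at E15.5 and -5.32 at E13.5, a difference from E13.5 of 4.61 (± 0.43 SE, edgeR adjusted p = 1.84e-05). For neither did the difference from E15.5 pass the test, at adjusted p = 0.149 for Insl3 and 0.355 for Cyp11a1 (edgeR). In both genes the effect at E13.5 was the deepest. Ccl17 changed in size rather than sign, with log2 fold changes of 0.70 in newborns, 2.11 in E15.5 testes and 3.35 in E13.5 testes, and the difference from E15.5 was -1.41 (± 0.16 SE, edgeR adjusted p = 0.00179). Pnmt was likewise less raised at PND 0 than at E15.5, by -1.54 (± 0.23 SE, edgeR adjusted p = 0.0332). Tmem114, a transmembrane protein, was higher at PND 0 (0.70) and had -0.80 at E15.5, a difference of 1.5 (± 0.23 SE, edgeR adjusted p = 0.0332). Cbln1, a secreted organiser of synapses, was the other gene, with 0.11 at PND 0, 1.17 at E15.5 and a difference of -1.06 (± 0.10 SE, edgeR adjusted p = 1.2e-04).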

How the data were processed

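RNA sequencing counts of 6 newborn testes (3 Inha KO, 3 Inha WT) were analysed within a table of 17 libraries. Per gene, the authors deposited raw counts from featureCounts, made in the RNAsik pipeline (1.5.4) from STAR alignments to GRCm38, after SOAPnuke had removed poor read pairs. The strand setting is not given in the sources used here, so overlapping genes may share reads. The deposited table held 19110 genes, each with 11 or more counts in some library. Of its gene names 24 had become dates and were restored from identifiers. Depth was 21066341 to 21747877 counts per newborn library.

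The quasi-likelihood test of edgeR (4.0.16, R 4.3.3) was run on TMM-scaled libraries, with 6 groups of age and genotype in 1 model, which lets groups of 2 or 3 libraries share their spread. The filter of edgeR removed 475 genes. Differences of the genotype effect between ages were tested as interactions. Alternatives were DESeq2 (1.42.0), limma voom (3.58.1), other scalings, filters and thresholds, the newborn libraries alone, the label number as a term and each library left out. Lists were described by counts and medians, with no test. On simulated counts for this comparison over 18472 genes, 35 of 67 changes of 1.5-fold, 64 of 67 of 2-fold and 66 of 66 of 4-fold were found, with 4 false of 169 calls. A true 1.5-fold change lies at the limit for a call. The simulated libraries were drawn independently around the group means, and changes were placed only in genes above a low CPM limit. No simulated library stood apart as KO 1 and WT 3 did, so these rates cannot be carried over to the real calls. Figures used matplotlib (3.10.9).

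Named genes were Inha, Hprt and Obsl1, the 12 largest rises and falls with at least 5 CPM and no overlap, genes called with all libraries, with the newborn libraries alone and in each fit without 1 of them, up to 6 called genes of a list (or the 2 most abundant), members of the activin and steroid lists, and called genes within 5 Mb of Inha; the text prints a selection of them, and a few genes are not reported here. The members, lists and rule were chosen with earlier results of these data known. Ifit3, the promoter patterns and the other genes called in each fit without 1 newborn library were chosen after values were seen.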

Additional observations from a re-analysis of the deposited data

Results flagged for a closer look

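Among the genes named by the rule, some had a genotype effect (log2 fold change, KO minus WT) at PND 0 that differed from that at another age by edgeR's test of the difference itself, at an adjusted p below 0.05. Differences are PND 0 minus the earlier age. Against E15.5 these were Pnmt by -1.54, Ccl17 by -1.41 and Tmem114 by 1.5.

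Against E13.5 the difference was above 0 for Leydig, steroid and cholesterol genes and Ephx1: Insl3 by 2.55, Lhcgr by 2.83, Crhr1 by 2.06, Cyp11a1 by 4.61, Cyp17a1 by 3.57, Hsd3b1 by 3.26, Star by 3.61, Cyb5a by 0.61, Fdps by 1.18, Ephx1 by 2.17 and Hsd17b3 by 0.58. It was also above 0 for Hprt by 0.43, Inhba by 1.44, Irf8 by 0.67, Slc26a7 by 2.25, Adamtsl2 by 0.91, Chdh by 1.29, Pla2g1b by 1.59, Aldoc by 1.10 and Tmem114 by 2.02.

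The difference was below 0 for Lefty2 by -2.38, Pnmt by -1.40, Ccl17 by -2.65, Oasl2 by -1.33, Crmp1 by -1.16, Grin3a by -1.65, Unc79 by -1.0, Myh6 by -1.85, Nell1 by -1.57, Rundc3a by -1.20, Pag1 by -0.90, Mark1 by -0.67, Myo5b by -0.55, Dnah10 by -1.93, Fbxl16 by -0.78, Jag2 by -1.02 and Hey1 by -0.97. No group had 4 samples, so single samples far from their group were not looked for by a test. E13.5 KO rests on 2 libraries.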

How the results depend on the processing

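The 360 called genes (84 higher, 276 lower in KO testes) depended on single libraries and on the model. With 1 newborn library left out the counts ran over 36 to 1093 in all, 13 to 304 higher and 23 to 789 lower, the lowest without KO 2 and the highest without KO 1. The newborn libraries fitted alone gave 18 (8 higher, 10 lower). An adjusted p alone gave 857 (471 higher, 386 lower), a limit of 3-fold gave 87 (9 and 78) and glmTreat against 1.5-fold gave 3 (0 and 3). DESeq2 gave 516, limma voom 401 and no filter 369. The difference from E15.5, 4 genes, was 111 with DESeq2, 2 with limma voom and 2 to 395 with a library left out. The difference from E13.5, 528 genes, was 946 with DESeq2 and 157 to 1116 with a library left out. The causes were not tested.

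The label numbers do not pair the genotypes 1 to 1. With a replicate block for the number 4183 there were 191 calls (42 higher, 149 lower). With a term for each label number in the newborn libraries alone, only the number 4183 held both genotypes. That contrast rests on KO 1 against WT 1 and WT 2, so its count of calls is not given. The deviations of KO 1 correlated at 0.27 and 0.23 with WT 1 and WT 2, which share its number, and at -0.47 with WT 3, values that are not independent because deviations within a group sum to 0. Those of KO 2 and KO 3 correlated at 0.30 and 0.32 with WT 3, whose number they do not share.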

Other observations

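Some transcripts differed between libraries without regard to genotype. Rpl29, a ribosomal protein gene, had 328, 354 and 1.14 CPM in KO testes, against 180, 345 and 189 CPM in WT testes at PND 0. At E13.5 it had 2.69 and 178 CPM in KO testes, against 1.81 to 2.37 CPM in WT testes. Trim12a had 8.16 CPM in WT 3 and at most 0.0461 CPM in the other newborn libraries. Apoa1 had 22.6 CPM in WT 1 and at most 2.71 CPM in the others.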
